A study of Mus musculus with 20 samples.

Results

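Expression of the angiopoietin and Tie genes was followed in mouse flank tissue after Ad-VEGF-A164, an adenovirus that carries the gene of VEGF-A164, a secreted growth factor of endothelial cells. The genes were the ligands Angpt1 and Angpt2, the receptors Tek (also called Tie2) and Tie1, and the receptor phosphatase Ptprb (also called VE-PTP), 5 of the 18194 genes that the arrays measured with a probe set of their own. They were chosen by name, with earlier results of these data known. Probe sets annotated to exactly 1 of these symbols numbered 2 for Angpt1, 2 for Angpt2, 1 for Tek, 1 for Tie1 and 3 for Ptprb. The probe set with the highest mean signal gave the value of each gene, and the others served as a check.

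The time course began with control flank tissue of day 0 (5 arrays, A to E). Tissue given Ad-VEGF-A164 followed from day 5 (4 arrays, B to E), day 20 (5 arrays, A to E) and day 60 (5 arrays, A to E). An additional array had a title of day 5 A but the source name of a day 0 control, and entered no comparison. Each RNA sample was hybridised to a Mouse Genome 430 2.0 array, and the values are the deposited MAS5 signals, an intensity on a linear scale. The sources used here give no strain, age, sex, vector dose or number of mice, no label names an empty vector, and controls were of day 0 only, so VEGF-A, vector, injection and time cannot be told apart. No label says that arrays came from separate animals. The p-values therefore set each difference only against the spread of these arrays within groups, and that spread may be technical.

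Tek is a receptor tyrosine kinase of endothelial cells. Angpt1, made mainly by cells around the vessel such as pericytes and fibroblasts, activates it and keeps vessels quiescent and tight. Angpt2, made and stored by endothelial cells themselves, competes with Angpt1 for Tek in a way that depends on the setting and loosens vessels so that they can sprout or regress. Tie1 binds no angiopoietin strongly but pairs with Tek and modulates its signal, and Ptprb removes phosphate groups from Tek and from the junction complex of VE-cadherin.

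The vector's gene, Vegfa, had signals of 66.5 to 467 in control of day 0, 3927 to 9410.0 on day 5, 7127.5 to 13514 on day 20 and 219 to 1076 on day 60. Median signals per array averaged 501 in control, and 451, 458 and 480.5 on days 5, 20 and 60. For Actb, the 3' probe set over the 5' probe set, a ratio that grows as RNA breaks down, averaged 7.10 in control, and 4.82, 4.48 and 8.82 on days 5, 20 and 60. Skeletal muscle, keratinocyte, fibroblast and endothelial markers gave signals in every group, the lowest being Icam2 at 54.2 on day 60 and Krt1 at 69.4 on day 20. Detection calls were not used, so the presence of each marker was not tested. Of 12 endothelial markers, 12 were higher on day 5, 12 on day 20 and 0 on day 60 (limma adjusted p under 0.05). Of 10 pericyte markers, 9 were higher on day 5, 9 on day 20 and 0 on day 60. Of all tested genes 16.8%, 15.6% and 0.368% were called higher on those days. Of 8 macrophage markers, 6 were higher on day 5, 3 were higher and 1 lower on day 20, and 0 were called on day 60. Of 5 adipocyte markers, 3 were lower on day 5, 3 on day 20 and 1 on day 60, where 17.5%, 14.5% and 0.765% of all genes were called lower. In such bulk tissue, more cells of a type and more RNA per cell cannot be told apart.

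Changes below are limma log2 changes of signal + 100 with their SE, from a single fit of all 19 assigned arrays, and p-values were adjusted by Benjamini-Hochberg over 13595 genes with a mean signal of at least 300. The added 100 understates the fold change of a gene with low signal. A change is called where the adjusted p is under 0.05. Groups whose arrays do not overlap are described for each gene, but the share of all genes that separate so was not counted. All 5 genes passed the minimum signal, but Tie1 (mean 344) passed it through its day 5 and day 20 arrays, as all its control signals were under 100.

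Against control, 3 of the 5 genes rose on day 5 (Angpt2, Tie1 and Ptprb) and 1 fell (Angpt1), where 16.8% of all tested genes were called higher and 17.5% lower. On day 20, 4 of the 5 rose (Angpt2, Tek, Tie1 and Ptprb), beside 15.6% of all genes called higher and 14.5% lower. On day 60 none was called, and 0.368% of all genes were called higher and 0.765% lower. These 3 comparisons share the same control arrays. Tie1 passed the minimum signal through its day 5 and day 20 arrays, which favours a higher call on those days in these counts.

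**Figure D1:**
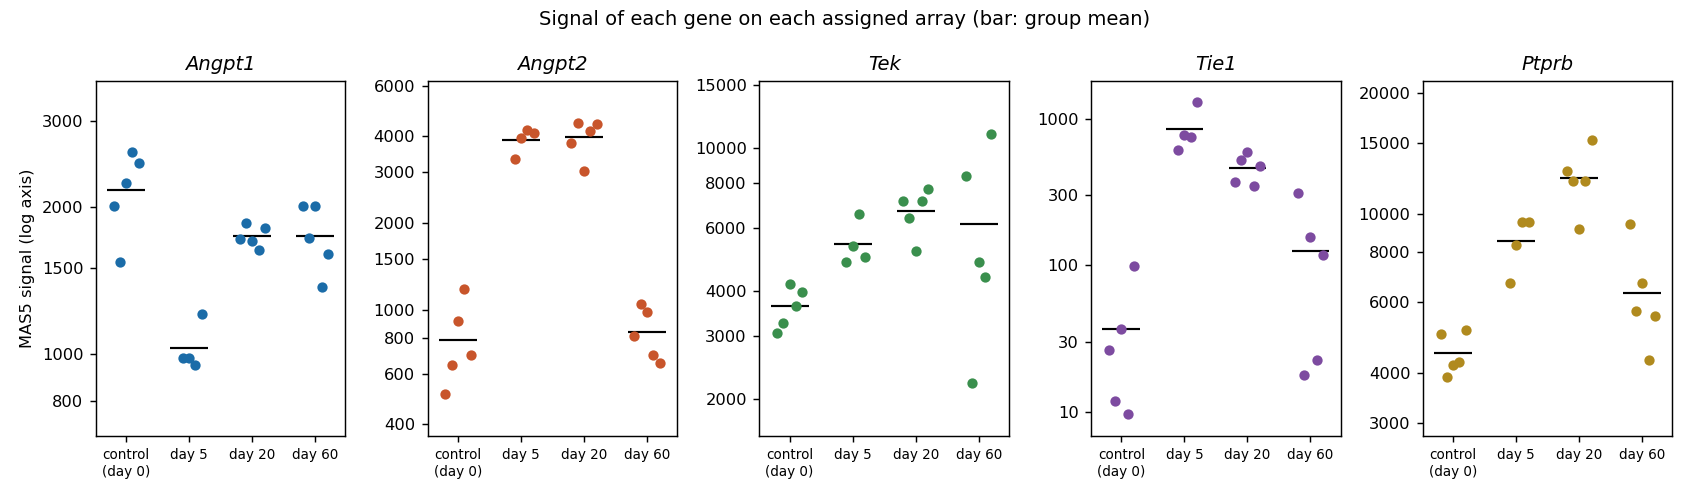
MAS5 signal (log axis, a separate scale for each gene) of Angpt1, Angpt2, Tek, Tie1 and Ptprb on each assigned array by group, with points for arrays and a bar for the group mean. Angpt1 was lowest on day 5 (951.9 to 1206), Angpt2 was high on days 5 and 20 and near control on day 60, and Tek ranged from 2213 to 10973 on day 60.

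Angpt1, the ligand that activates Tek, fell on day 5. Its signal in the control arrays A to E was 2013, 1548, 2242, 2594 and 2471. On day 5 the arrays B to E gave 981, 980.0, 952 and 1206. On day 20 arrays A to E gave 1721, 1862, 1704, 1633 and 1815, and on day 60 they gave 2012, 1728, 2010.5, 1370.2 and 1602. Every day 5 array lay under every other array, while the day 20 and day 60 arrays overlapped with the controls.

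Angpt1 averaged 1029.9 ± 118 on day 5 (SD, n = 4) and 2174 ± 414 in control (n = 5), a fall of 1.99-fold (log2 change -0.99 ± 0.14, limma adjusted p = 3.5e-05). On day 20 the mean was 1747 ± 91.1 (log2 change against control -0.28 ± 0.14, limma adjusted p = 0.128), and on day 60 it was 1745 ± 275 (-0.29 ± 0.14, limma adjusted p = 0.298). Without control array B, the Angpt1 change of day 20 was -0.39 and was called (limma adjusted p = 0.0227). Angpt1 was higher on day 20 than on day 5 (log2 change 0.71 ± 0.14, limma adjusted p = 0.00646) and higher on day 60 than on day 5 (0.70 ± 0.14, limma adjusted p = 0.00156). Of all genes, 3.05% were called higher and 2.25% lower on day 20 against day 5, and Angpt1 was the only member of the 5 among them. In order of mean level, day 5 was followed by day 60, day 20 and control, and the neighbours day 60 and day 20 (limma adjusted p = 0.959) and day 20 and control were not separated by the test.

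The second Angpt1 probe set, with signals of 10.6 to 89.0 over all assigned arrays, was under the minimum signal in every group. Fitted without a minimum, its log2 change on day 5 was -0.11 ± 0.14 (limma adjusted p = 0.66), so the fall of Angpt1 rests on 1 probe set. Of 6 fibroblast markers, 4 were lower on day 5 than in control and 1 was higher. The summed signal of the list was 74642 to 87893 on day 5 and 121024 to 186108 in control. Of all genes, 17.5% were called lower and 16.8% higher in that comparison. Adipocyte markers were also lower, 3 of 5, with sums of 93976.3 to 107091 on day 5 and 121967 to 264940 in control. Macrophage markers were higher, 6 of 8, with sums of 172291 to 228082 on day 5 and 42764.4 to 98342.8 in control. Pericyte markers were higher, 9 of 10, with sums of 95320.1 to 137424 on day 5 and 50652 to 68786 in control. The part of these cell types in the Angpt1 result was not tested.

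Angpt2, the ligand that loosens vessels, rose on days 5 and 20 and was back in the control range on day 60. The control arrays A to E gave 511, 641, 913, 1177 and 695. The day 5 arrays B to E gave 3327, 3939, 4204 and 4122, and the day 20 arrays A to E gave 3789.8, 4447, 3042, 4187 and 4425. The day 60 arrays A to E gave 813, 1044, 981, 696 and 653. Every array of day 5 and day 20 lay above every control and day 60 array, and the day 60 arrays fell within the control range.

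Angpt2 averaged 3898 ± 397 on day 5 (SD, n = 4) and 788 ± 262 in control (n = 5), a 4.64-fold rise (log2 change 2.21 ± 0.19, limma adjusted p = 9.9e-08). On day 20 it averaged 3978 ± 586, a 4.71-fold rise over control (log2 change 2.23 ± 0.18, limma adjusted p = 4.08e-08). On day 60 it averaged 837 ± 172, and the log2 change against control was 0.11 (95% interval -0.26 to 0.48, limma adjusted p = 0.802). Day 20 and day 5 differed by a log2 change of 0.02 ± 0.19 (95% interval -0.37 to 0.42, limma adjusted p = 0.967). On day 60 Angpt2 was 4.37-fold lower than on day 20 (log2 change -2.13 ± 0.18, limma adjusted p = 1.04e-07), a comparison in which 11.0% of all genes were called higher and 11.2% lower. Against day 5, the log2 change of Angpt2 on day 60 was -2.11 ± 0.19 (limma adjusted p = 2.8e-07), where 12.2% of all genes were called in each direction.

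A second Angpt2 probe set with a mean under the minimum gave 91.1 ± 90.3 in control, and 415 ± 100, 552 ± 43.8 and 114 ± 53.7 on days 5, 20 and 60 (SD, n = 4 on day 5 and 5 in the other groups). Fitted without a minimum, it rose on day 5 (log2 change 1.51 ± 0.27, limma adjusted p = 0.000464) and day 20 (1.87 ± 0.25, limma adjusted p = 3.05e-05). Its log2 change on day 60 against control was 0.22 ± 0.25 (limma adjusted p = 0.796).

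Within each array, the log2 difference between Angpt2 and Angpt1 was set against its mean in the controls. It was -0.40, 0.23, 0.17, 0.31 and -0.31 in control arrays A to E, and 3.05, 3.29, 3.42 and 3.08 in day 5 arrays B to E. In day 20 arrays A to E it was 2.48, 2.60, 2.18, 2.69 and 2.63, and in those of day 60 it was 0.17, 0.71, 0.42, 0.50 and 0.21. The ratio of Angpt2 to Angpt1, on the scale of signal + 100, was thus 9.24-fold its control mean on day 5 and 5.72-fold on day 20. Every day 5 array lay above every day 20 array, every day 20 array above every control and day 60 array, and the day 60 and control arrays overlapped. These differences within arrays were not tested further, since they restate the changes of both genes.

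**Figure D2:**
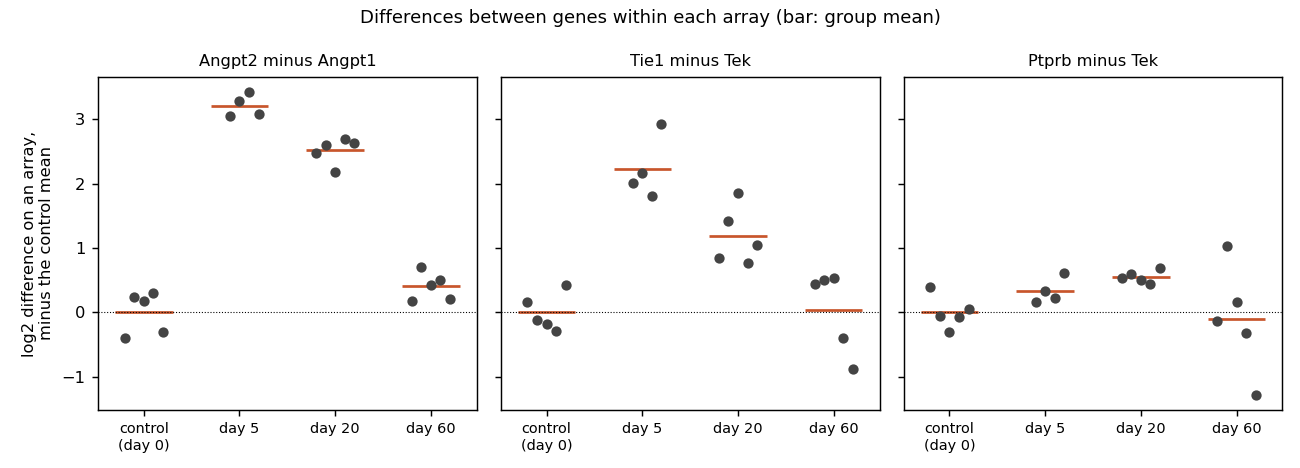
Log2 difference between 2 genes on each array (signal + 100), minus the mean of the control arrays, for Angpt2 minus Angpt1, Tie1 minus Tek and Ptprb minus Tek, with points for arrays and a bar for the group mean. Angpt2 minus Angpt1 averaged 3.21, 2.52 and 0.40 on days 5, 20 and 60, and Ptprb minus Tek spread from -1.28 to 1.03 on day 60.

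Among the receptors, Tek and Tie1 had a promoter in the RefSeq-derived table of build GRCm38.p6, 2 of the 5 genes. The promoters are shown with the GGAA core that transcription factors of the ETS family bind, as these are among the factors known to drive Tie genes. This core was chosen with the changes of ETS genes in these arrays known, and a link between the 2 was not tested. The Tek window is chr4:94739039-94739338 on the plus strand and the Tie1 window chr4:118489800-118490099 on the minus strand. Each has 300 bases, from 250 before to 50 after the start site, written 5′ to 3′ along the gene, and capitals mark GGAA and its reverse complement TTCC.
Tek: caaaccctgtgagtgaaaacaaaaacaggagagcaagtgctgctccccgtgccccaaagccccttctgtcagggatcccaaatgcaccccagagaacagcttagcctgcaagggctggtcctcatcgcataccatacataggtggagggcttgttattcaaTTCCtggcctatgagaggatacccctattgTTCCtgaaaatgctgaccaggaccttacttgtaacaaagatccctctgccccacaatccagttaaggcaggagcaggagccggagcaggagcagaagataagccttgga
Tie1: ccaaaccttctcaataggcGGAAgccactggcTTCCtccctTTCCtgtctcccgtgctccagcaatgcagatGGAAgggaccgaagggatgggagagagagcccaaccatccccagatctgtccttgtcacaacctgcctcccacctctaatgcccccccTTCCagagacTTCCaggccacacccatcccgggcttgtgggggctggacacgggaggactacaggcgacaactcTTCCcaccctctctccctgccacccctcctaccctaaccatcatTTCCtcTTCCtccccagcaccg

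The Tek window held 2 such matches and the Tie1 window 9, counted on both strands. The annotated Tek gene starts at base 94739086, so most of the Tek window lies inside the gene. The Tie1 gene, on the minus strand, begins at base 118489849, so most of its window lies before the gene. At least 1 match was present in 96.0% of 32851 promoters of the same length, at least 2 in 84.6% and at least 9 in 1.59%, with a median of 3. A GATA site (AGATAA or TTATCT) occurred 1 time in the Tek window and 0 times in that of Tie1, and in 11.2% of all promoters. A forkhead site (GTAAACA or TGTTTAC) was in neither window and in 3.65% of all promoters. A match describes these letters and is not evidence of binding.

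Tek, the receptor of both ligands, was higher on day 20 but spread widely on day 60. The control arrays A to E gave 3051, 3259.6, 4194, 3621 and 3982, and the day 5 arrays B to E gave 4811, 5326, 6568 and 4972. The day 20 arrays A to E gave 7101, 6367, 5176, 7128 and 7665. The day 60 arrays A to E gave 8356, 2213, 4821, 4362 and 10973. Every array of days 5 and 20 lay above every control array, while day 60 held both the highest and the lowest Tek signal of all assigned arrays.

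Tek averaged 6687 ± 963 on day 20 (SD, n = 5) and 3621 ± 478 in control (n = 5), a 1.82-fold rise (log2 change 0.86 ± 0.28, limma adjusted p = 0.0253). This call was lost without control array A (log2 change 0.81, limma adjusted p = 0.0597), without day 20 array E (0.81, 0.0531) and with that Actb ratio as a covariate in the fit (0.80, 0.0715). On day 5 Tek averaged 5419 ± 796 and the log2 change against control was 0.57 ± 0.30 (95% interval -0.05 to 1.19, limma adjusted p = 0.15). In a fit of day 5 and control alone, which leaves out the day 60 spread, the same change had an SE of 0.14 and a limma adjusted p of 0.00888. On day 60 it averaged 6145 ± 3486, with a log2 change of 0.56 ± 0.28 (limma adjusted p = 0.344). No pair of days was separated by the test for Tek, with limma adjusted p-values of 0.636 for day 20 against day 5, 0.477 for day 60 against day 20 and 0.984 for day 60 against day 5. In order of mean signal Tek was lowest in control, then on day 5, day 60 and day 20.

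Tie1, the partner receptor, had control signals under 100 and rose on days 5 and 20. The control arrays A to E gave 26.6, 11.95, 36.9, 9.66 and 98.9, and the day 5 arrays B to E gave 613, 773, 746 and 1286. The day 20 arrays A to E gave 368, 521, 587, 346 and 477. On day 60 arrays A to E gave 313, 18.0, 157, 22.7 and 117. Every day 5 array lay above every day 20 array, and every day 20 array above every day 60 and control array, while arrays B and D of day 60 were within the control range and A, C and E above it.

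Tie1 averaged 855 ± 296 on day 5 (SD, n = 4) and 36.8 ± 36.4 in control (n = 5), a 6.93-fold rise of signal + 100 (log2 change 2.79 ± 0.32, limma adjusted p = 2.72e-06). On day 20 it averaged 459.7 ± 102, a 4.14-fold rise (log2 change 2.05 ± 0.30, limma adjusted p = 4.56e-05). The size of both changes depended on the added constant, with log2 changes of 1.31 to 4.93 on day 5 and 0.83 to 4.06 on day 20 over the alternatives, each called. On day 60 Tie1 averaged 125 ± 121, and the log2 change was 0.60 ± 0.30 (limma adjusted p = 0.35). Tie1 was lower on day 60 than on day 20 (log2 change -1.45 ± 0.30, limma adjusted p = 0.0018) and than on day 5 (-2.20 ± 0.32, limma adjusted p = 6.63e-05). Between day 20 and day 5 the log2 change was -0.74 ± 0.32 (limma adjusted p = 0.198). In order of mean signal day 5 was highest, then day 20, day 60 and control. The neighbours day 20 and day 5, and day 60 and control, were not separated by the test.

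Ptprb, the phosphatase that acts on Tek, was highest on day 20. The control arrays A to E gave 5011, 3905, 4190.4, 4267 and 5124, and the day 5 arrays B to E gave 6717, 8374, 9534 and 9517. The day 20 arrays A to E gave 12768, 12033, 9136, 12053 and 15311, and those of day 60 gave 9416, 5729, 6702, 4318 and 5555. All arrays of days 5 and 20 lay above all controls, and on day 60 array D was within the control range and the other 4 above it.

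Ptprb averaged 8536 ± 1328 on day 5 (SD, n = 4) and 4499 ± 537 in control (n = 5), a 1.87-fold rise (log2 change 0.90 ± 0.19, limma adjusted p = 0.000952). On day 20 it averaged 12260.3 ± 2204, a 2.67-fold rise (log2 change 1.42 ± 0.18, limma adjusted p = 6.22e-06). On day 60 it averaged 6344 ± 1915, with a log2 change against control of 0.45 ± 0.18 (limma adjusted p = 0.207). Ptprb was lower on day 60 than on day 20 (log2 change -0.97 ± 0.18, limma adjusted p = 0.00055), with day 60 array A above the lowest day 20 array. The log2 change of day 20 against day 5 was 0.51 ± 0.19 (limma adjusted p = 0.119), and that of day 60 against day 5 was -0.46 ± 0.19 (limma adjusted p = 0.081). Without day 60 array A, the change of day 60 against day 5 was -0.61 with a limma adjusted p of 0.0132. In order of mean signal Ptprb was lowest in control, then on day 60, day 5 and day 20.

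Of the other Ptprb probe sets, the brighter gave 3026 ± 623 in control, and 6968 ± 1488, 8302 ± 1195 and 3874 ± 1363 on days 5, 20 and 60 (SD, n = 4 on day 5 and 5 in the other groups). In a fit of all probe sets it rose on day 5 (log2 change 1.18 ± 0.22, limma adjusted p = 0.00049) and on day 20 (1.44 ± 0.21, limma adjusted p = 4.12e-05). On day 60 it was lower than on day 20 (log2 change -1.13 ± 0.21, limma adjusted p = 0.000715) and than on day 5 (-0.87 ± 0.22, limma adjusted p = 0.00839), a call that the main probe set did not reach. The dimmest Ptprb probe set, with a mean under the minimum, had a log2 change of 1.56 ± 0.39 on day 5 (limma adjusted p = 0.00875) and 0.98 ± 0.37 on day 20 (limma adjusted p = 0.0859) when fitted without a minimum.

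**Figure D3:**
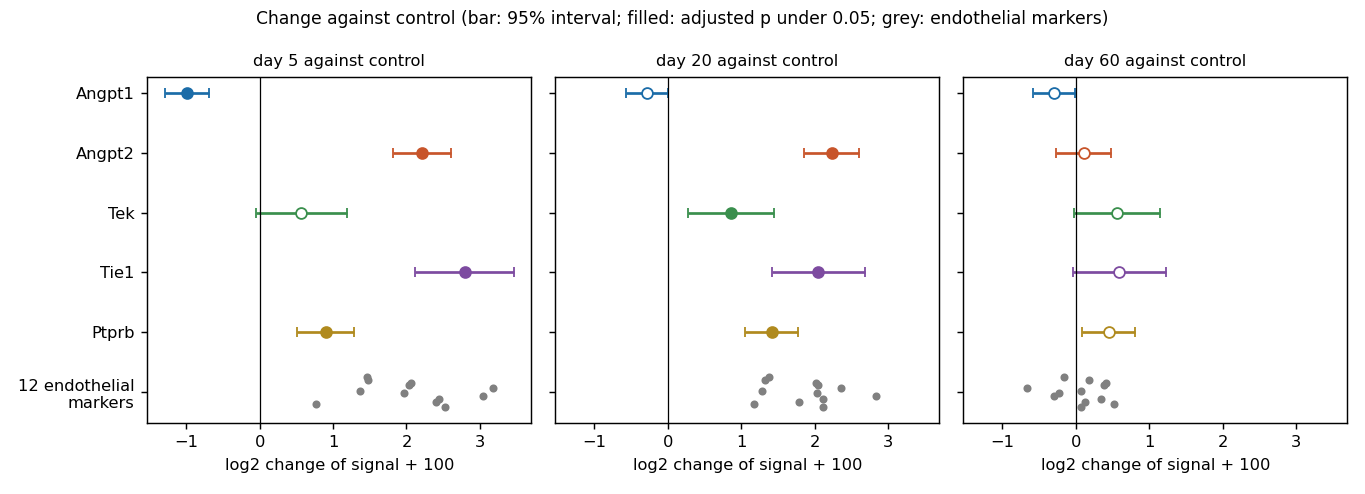
Limma log2 change of signal + 100 for each gene on day 5, day 20 and day 60 against control, with bars for 95% intervals and filled points for an adjusted p under 0.05. Grey points are the 12 endothelial markers, whose median change was 2.05 on day 5, 2.03 on day 20 and 0.10 on day 60.

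The receptors and Angpt2 were set beside 12 endothelial markers (Pecam1, Cdh5, Cldn5, Esam, Emcn, Erg, Egfl7, Robo4, Ecscr, Icam2, Mmrn2 and Myct1). The summed signal of these markers was 21622 to 26563 in control, 96283 to 106690 on day 5, 76016 to 114432 on day 20 and 19862 to 38421 on day 60. On day 5 their log2 changes ran from 0.77 (Cldn5, a tight junction protein) to 3.19 (Icam2, an adhesion molecule). The change of Tek on day 5 was under that of all 12 markers, and that of Ptprb was above 1 of them. Angpt2 was above 7 (5 with a pseudocount of 500). On day 20 the markers ran from 1.17 (Cldn5) to 2.84 (Emcn, an endothelial sialomucin), with Tek under all 12, Ptprb above 4 and Angpt2 above 10. On day 60 the change of Tek was above those of all 12 markers, which had a median of 0.10, though it was not called. The place of Tie1 among the markers was set by the added constant, because its control signals were under 100. On day 5 its change was above 12, 10 and 4 of the 12 markers with constants of 1, 100 and 500, on day 20 above 12, 7 and 0, and on day 60 above 12, 12 and 8.

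The same fit was repeated after the mean log2 level of the endothelial markers was subtracted from each array. On this scale 96.2% of all tested genes were called lower on day 5 and 96.2% on day 20, so a lower call says little about a gene, and 0.463% were called higher on day 5 and 0.552% on day 20. The relative change of Tie1 turned direction with the added constant, an alternative chosen after seeing the data, and gives no direction here. On day 5 it was 0.73 ± 0.32 with the constant of 100 (limma adjusted p = 0.0332), 2.76 with 1 (0.000935) and -0.46 with 500 (0.0135). With the constant of 100 that call was also lost without control array A (limma adjusted p = 0.054), B (0.0546) or D (0.0703), without day 5 array E (0.144), and with the median of the markers in place of their mean (0.0538). On day 20 the relative change of Tie1 was 0.18 ± 0.30 with 100 (limma adjusted p = 0.569), 2.09 with 1 (0.00561) and -0.76 with 500 (9.2e-05).

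Angpt2 had a relative log2 change of 0.15 ± 0.22 on day 5 (95% interval -0.29 to 0.60, limma adjusted p = 0.495) and 0.36 ± 0.20 on day 20 (95% interval -0.06 to 0.78, limma adjusted p = 0.0901). The day 20 value passed the test without control array C (limma adjusted p = 0.0428) or D (0.0251). Tek was lower by this measure on day 5 (-1.50 ± 0.32, limma adjusted p = 0.000115) and day 20 (-1.01 ± 0.30, limma adjusted p = 0.00289), and so was Ptprb (-1.16 ± 0.16 with 4.04e-07 on day 5, and -0.46 ± 0.15 with 0.00643 on day 20). The day 20 call of Ptprb was lost with the median of the markers (-0.27, limma adjusted p = 0.119) and with a constant of 500 (-0.25, 0.0855). Angpt1, made mainly outside the endothelium, had relative changes of -3.06 ± 0.18 on day 5 and -2.15 ± 0.17 on day 20 (limma adjusted p = 1.93e-11 and 3.55e-10). On day 60 none of the 5 genes was called relative to the markers, where 0.0147% of all genes were called higher and 0.257% lower.

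Within arrays, Tie1 minus Tek had an SD of 0.29 in control, and stood 2.22 ± 0.48, 1.19 ± 0.45 and 0.04 ± 0.64 log2 units above its control mean on days 5, 20 and 60 (SD, n = 4 on day 5 and 5 otherwise). With the constant of 100, every array of days 5 and 20 lay above the highest control, at 0.43. The size depended on that constant, with means of 4.35, 3.18 and 0.94 on days 5, 20 and 60 with 1, and 0.79, 0.04 and -0.32 with 500. With 500, all 4 arrays of day 5 but only 2 of 5 of day 20 lay above the highest control. Ptprb minus Tek had an SD of 0.25 in control and stood at 0.34 ± 0.20, 0.55 ± 0.09 and -0.11 ± 0.83 on the same days. For Ptprb minus Tek, every day 20 array lay above the highest control (0.39), whereas the day 5 and day 60 arrays overlapped with the controls.

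The day 60 arrays spread widely for Tek and for Tie1. The Tie1 signals of that day were low, at 18.0 to 313, where the added 100 weighs on the SD. The SD of log2(signal + 100) over the 5 day 60 arrays was 0.88 for Tek and 0.76 for Tie1, which placed them at the 95.6th and 93.0th percentile of 13595 genes, whose median SD was 0.30. For Ptprb the SD was 0.41, at the 70.1st percentile, and for Angpt1 and Angpt2 it was 0.22 and 0.26. Tek was high in arrays A and E and low in B, while Tie1 was high in A and low in B and D. The mean log2 level of the endothelial markers was 10.97, 10.79, 10.72, 10.15 and 10.40 in day 60 arrays A to E, so array E had the highest Tek signal beside a marker mean that lay in the control range of 10.39 to 10.78. The Actb 3' to 5' ratio was 14.0, 10.4, 4.32, 10.9 and 4.52 in the same order, so the arrays with high Tek (A and E) had both the highest ratio and a low one. Fibroblast markers had mean log2 levels of 14.93, 14.17, 13.75, 14.48 and 14.97, highest in A and E. Macrophage markers had 12.76, 11.98, 11.08, 12.58 and 13.30, also highest in A and E. Adipocyte markers had 10.08, 12.61, 11.28, 12.23 and 10.77, lowest in A and E and highest in B. Pericyte markers had 11.45, 11.59, 11.29, 11.26 and 11.27, highest in B. Smooth muscle, lymphatic, keratinocyte and platelet markers are not given here. Skeletal muscle markers had 16.19, 13.02, 16.81, 16.02 and 15.29, lowest in B. The part of RNA quality or of any cell type in the Tek spread was not tested. At the other extreme, Angpt1 on day 20 had an SD of 0.07, at the 2.35th percentile.

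**Figure D4:**
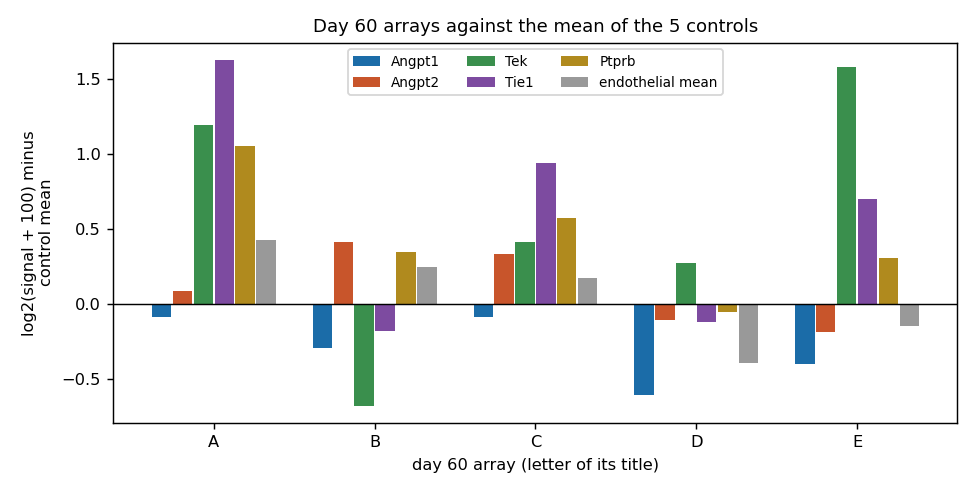
Log2(signal + 100) on each day 60 array minus the mean of the 5 control arrays, for the 5 genes and for the mean of the 12 endothelial markers, with 1 bar for each value. Tek and Tie1 spread more than the others, with an SD of 0.88 and 0.76, and Angpt1 lay under 0 on every day 60 array.

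The genes around the pathway were taken from a list of 30 adaptors, kinases, targets and partners, chosen with earlier results of these data known. Of these, 26 were tested. Angpt4 was under the minimum signal, and the others were not analysed here. On day 5 against control, 11 rose, 7 fell and 8 were not called, with a median log2 change of 0.45 beside -0.07 for all tested genes, of which 16.8% were called higher and 17.5% lower. On day 20, 10 rose, 5 fell and 11 were not called (median 0.36, beside -0.06 for all genes, with 15.6% called higher and 14.5% lower). On day 60, 1 rose and 25 were not called (median 0.07, beside 0.01), where 0.368% of all genes were called higher and 0.765% lower.

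The 3 largest rises on both days were those of partner molecules at the membrane. Cdh5, the VE-cadherin that Ptprb associates with and also an endothelial marker, rose by a log2 change of 2.52 ± 0.22 on day 5 (limma adjusted p = 9.9e-08) and 2.11 ± 0.20 on day 20 (3.36e-07). Integrin subunits that angiopoietins can bind followed, with Itga5 at 2.32 and 1.91 and Itgb1 at 1.97 and 1.81 on days 5 and 20, and Itgav at 0.68 and 0.86. Adam17, a protease that sheds Tie1 and other receptors, rose by 1.19 ± 0.17 on day 5 and was called higher on day 20 as well (limma adjusted p = 0.000119). Svep1, a large matrix protein, had a log2 change of 0.49 on day 5 (limma adjusted p = 0.113) and rose by 0.83 ± 0.22 on day 20 (0.00762).

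Adaptors and kinases that act inside the cell went both ways. Grb14 fell by 2.11 on the log2 scale on day 5 (limma adjusted p = 1.53e-05) and by 0.91 on day 20 (0.0146), and Grb7 fell by 1.302 (0.0231) and by 1.47 (0.00935). Both are adaptors that bind phosphorylated receptor tyrosine kinases. Grb2, which links receptors to Ras, rose by 1.01 on day 5 (limma adjusted p = 3.87e-05) and had a change of 0.33 on day 20 (0.0848). Nck1, an adaptor to the cytoskeleton, rose by 0.94 and 0.83, and Rasa1, a GTPase-activating protein of Ras, by 0.65 and 0.67. Dok2, an adaptor that docks on Tek, and Shc1 were not called on any day.

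In the lipid kinase branch that Tek activates, Pik3r1, the regulatory subunit, fell by 0.73 on day 5 (limma adjusted p = 0.0043) and Pik3ca, a catalytic subunit, fell by 0.45 (0.00773), while neither was called on day 20. Akt2 fell by 1.05 on day 5 and by 0.78 on day 20 (limma adjusted p = 0.00245 and 0.0139), whereas Akt1 had changes of 0.45 (0.14) and 0.51 (0.0882). Foxo1, the transcription factor that Akt restrains and that raises Angpt2 in endothelial cells, fell by 0.58 on day 5 (limma adjusted p = 0.00308) and by 0.47 on day 20 (0.0099). Foxo3 fell by 0.62 and by 0.63 on the same days. Among targets, Birc5, the survival and mitosis protein survivin, rose by 1.61 on day 5 and 0.93 on day 20, and was the only gene of the list called on day 60 (0.67 ± 0.14, limma adjusted p = 0.0233). Nos3, the endothelial nitric oxide synthase, rose by 0.71 on day 5 (limma adjusted p = 0.0168), and Dll4, a Notch ligand, by 0.67 on day 5 and 0.52 on day 20.

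**Figure D5:**
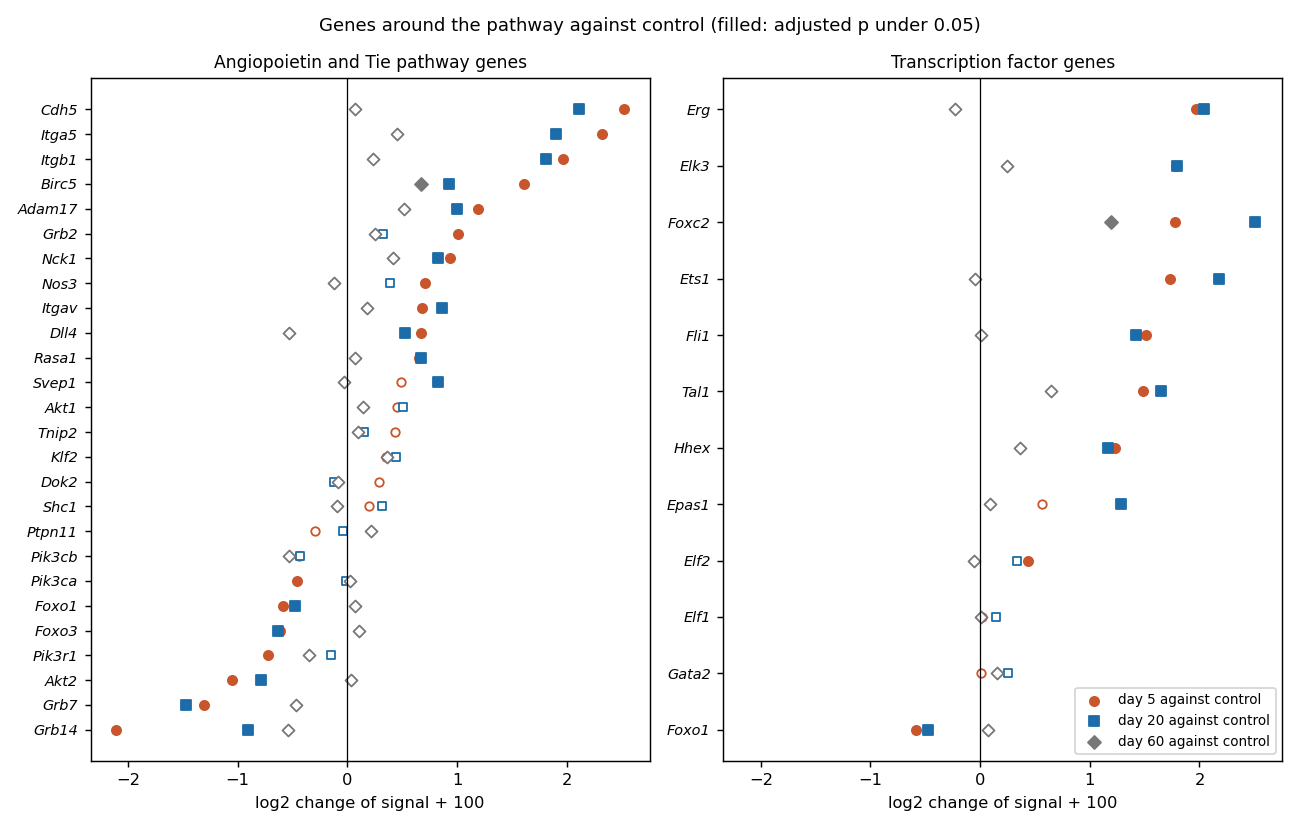
Limma log2 change of signal + 100 against control for 26 tested pathway genes (left) and 12 transcription factor genes (right) on day 5 (circles), day 20 (squares) and day 60 (diamonds), with filled points for an adjusted p under 0.05. Most day 60 points lie near 0, and Birc5 and Foxc2 are the filled ones.

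Of 12 transcription factors known to act on these genes or on endothelial genes at large, 8 rose and 1 fell on each of days 5 and 20, with median log2 changes of 1.36 and 1.35. Over all tested genes the medians were -0.07 and -0.06, with 16.8% and 15.6% called higher and 17.5% and 14.5% lower. The list was chosen with earlier results of these data known, so its counts are a description and not a test. The largest rises of day 5 were those of the ETS factors Erg (1.97 ± 0.20, also an endothelial marker) and Elk3 (1.78 ± 0.23) and of the forkhead factor Foxc2 (1.77 ± 0.30), with limma adjusted p-values of 4.89e-07, 1.06e-05 and 0.00016. On day 20 they were Foxc2 (2.51 ± 0.28), the ETS factor Ets1 (2.18 ± 0.20) and Erg (2.04 ± 0.18), with limma adjusted p-values of 2.22e-06, 2.19e-07 and 1.82e-07. Fli1, Tal1 and Hhex also rose on both days, and Epas1, a hypoxia factor, rose by 1.28 on day 20 (0.000343). Foxo1 was the factor that fell. The ETS factor Elf1 and Gata2, a factor of endothelial and blood cell genes, were not called on any day. On day 60 Foxc2 was called (1.19 ± 0.28, limma adjusted p = 0.0465) and the other 11 were not. Of all genes 0.368% were called higher and 0.765% lower on that day, and the day 60 arrays of Foxc2 overlapped with the controls.

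As a description without a test, each gene was set beside the tested genes whose levels over the 19 arrays, which share the group structure, were most like its own. For Angpt2 these were Rasgrp2 (Pearson r = 0.99), Fam167b (0.98) and Gjc1 (0.97), and Angpt1 was closest to Rab3a, Sncg and Pcgf5 (0.89 each). For Tie1 they were Capn2, Pdia5 and Cdh5 (0.94 each), and for Ptprb they were Cdh13 (0.94), Jcad (0.94) and Hip1 (0.93). For Tek the values were lower, with Slc43a3 and Poglut3 at 0.85 and Axl at 0.82. Deviations from the group means, which remove the differences between days, put Tek beside Sema3c (0.95), Thbd (0.93) and Cdh9 (0.92), and Ptprb beside Shank3 (0.88), Eng (0.87) and Utrn (0.87). Among the 5 genes themselves the deviations of Tie1 and Ptprb (r = 0.64) and of Angpt1 and Tie1 (0.59) were the most alike, and those of Angpt2 and Tie1 were at -0.07.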

How the data were processed

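Flank tissue RNA was hybridised to 20 Mouse Genome 430 2.0 arrays. The values are the authors' deposited MAS5 intensity values, 1 signal per probe set and array, made with MAS 5.0 in GCOS 1.3 and a scaling factor of 1500, per the labels. The authors' scaling was kept, and detection calls were not used here. The number of arrays limits the precision.

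Groups came from source name and title. Of 45101 probe sets, 34958 had 1 gene symbol in the platform annotation, 932 had several and 9211 none here. Gene identifiers were used to update symbols, with 34754 probe sets matched to the RefSeq table of GRCm38.p6. The probe set of highest mean signal over 19 arrays stood for each of 18194 genes.

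Tests used R 4.3.3 and limma 3.58.1 (lmFit, then eBayes with a trend, two-sided) on log2(signal + 100). The fit was checked with simulated data. Named genes were the 5 genes, the 3 largest called rises and falls of each list, list members with a described role, and the 3 most like genes. The 5 genes and all lists were chosen with earlier results of these data known. Same-letter arrays of different groups deviated together only weakly, with a mean r of 0.05 over 27 pairs beside -0.01 over 108 pairs of other letters. Letters were therefore not used as pairs. Alternatives changed the pseudocount, minimum signal, normalization, trend, array weights, arrays in the fit, probe set, block, covariate, marker summary and the placing of the unassigned array.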

Additional observations from a re-analysis of the deposited data

Results flagged for a closer look

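The array titled day 5 A but labelled as a control in its source name had signals of 3943 for Angpt2, 4824 for Tek, 716 for Tie1 and 6811 for Ptprb, each above the highest of the 5 control arrays. Its Angpt1 signal of 1095 lay under the lowest control (1548). Its Vegfa signal was 11111.1, beside 3927 to 9410.0 on the day 5 arrays and 66.5 to 467 on the control arrays.

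Angpt1 on day 5 array E, at 1206, stood apart from the other 3 day 5 arrays by Dixon's criterion for 4 samples. In all 20 groups were examined in this way, and chance flags about 1 in 20.

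Some levels differed between harvest days in the limma test. Angpt1 differed by a log2 change of 0.71 on day 20 against day 5 and 0.70 on day 60 against day 5. Angpt2 differed by -2.13 on day 60 against day 20 and -2.11 on day 60 against day 5, Tie1 by -1.45 and -2.20, and Ptprb by -0.97 on day 60 against day 20.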

How the results depend on the processing

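Over all alternatives, 819 values for single genes kept their side of the threshold, 10 lost the call, 13 gained it and 2 changed sign with a call. Uncalled values that changed sign were counted among the 819, such as Angpt2 on day 60 against control (-0.27 to 0.25). Both changes of sign with a call came from a pseudocount of 500 in the fit relative to the endothelial mean, an alternative chosen after seeing the data. There Tie1 was called lower on day 5 (-0.46, limma adjusted p = 0.0135) and day 20 (-0.76, 9.2e-05), and Ptprb on day 20 was not called (-0.25, 0.0855). With a pseudocount of 1, Tie1 on day 20 was called higher (2.09, 0.00561). The number of the 5 genes called on day 20 against day 5 was 2 in place of 1 with a pseudocount of 500, where Tie1 was called (-0.48, limma adjusted p = 0.0475), and with day 5 A counted as day 5, where Ptprb was called (0.57, 0.0494). The letter of the title as a replicate block changed 1 call, that of Ptprb on day 60 against day 5 (-0.53, limma adjusted p = 0.0377), which was also called with array weights (-0.60, 0.0177) and with the Actb ratio as a covariate (-0.62, 0.0314). Angpt1 on day 20 was called lower with array weights (-0.39, 0.0171). With the median of the endothelial markers, Angpt2 on day 20 was called higher (0.55, 0.0173) and Ptprb was not called (-0.27, 0.119). The cause of these shifts was not tested. Leaving out arrays 1 at a time gave the changes named beside Angpt1, Tek, Tie1, Ptprb and Angpt2 above. Tie1 had no value with a minimum mean signal of 1000. Low signal limits Tie1 and the dimmer probe sets most.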
